A study of Mus musculus with 8 samples.

Results

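Mouse genes that carry a provisional symbol, Gm followed by a number, were examined for a switch between presence and absence from 1 mammary gland to the next. The 28 genes described here were chosen by their measured counts, as those Gm genes with 50 or more counts in at least 1 of 8 libraries and 3 or fewer in at least 1 other, and they came from 24635 Gm genes among 51789 genes in the table. A library at 50 or more counts is called on for that gene, and a library at 3 or fewer is called off. Of the 845 Gm genes that reached 50 counts, 3.31% met the rule and 817 stayed above 3 counts in every library. Among 13702 genes with other symbols that reached 50 counts, 171 (1.25%) met it. The order of these shares depended on level: with a highest count of 50 to 99 the rule took 3.93% of Gm genes and 5.79% of other genes, and at 200 or more it took 1.96% and 0.557%. Because the rule used these counts, the on and off values are given as a description, with no test.

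The libraries were made from polyadenylated RNA of whole abdominal mammary glands of immunocompetent female C57BL/6 mice, 6 weeks after injection of small extracellular vesicles (sEVs) into the gland. The vesicles came from AT3, a metastatic mouse mammary adenocarcinoma line, kept in normoxia (sEV NORM, 3 libraries) or hypoxia (sEV HYP, 2 libraries), or the gland received the same preparation made from medium that no cells had conditioned (sEV CTRL, 3 libraries). All 3 groups were therefore injected. The labels do not name the mouse behind each library, but the number of libraries per group matched the study's statement of animals per group for this experiment, so each library was taken as a separate mouse. Total counts ran from 18194996 to 24622569 per library, so that 3 counts equalled 0.121 to 0.164 CPM, the count scaled by the library's total after TMM adjustment. Defining markers of luminal epithelium (Krt8, Krt18, Krt19, Epcam and Elf5), adipocytes and basal epithelium were detected in every library, with summed levels of 333 to 600 CPM for the luminal list and 4060 to 7490 CPM for the adipocyte list.

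Gm symbols are placeholders given to predicted gene models, and they cover pseudogenes, noncoding RNAs, members of recently duplicated families and read-through models that join neighbouring genes. A processed pseudogene is an intronless copy of a spliced mRNA inserted elsewhere in the genome, and an unprocessed pseudogene is a duplicate that keeps its exon structure. A short read from such a copy can match its parent gene equally well, and RSEM, the program the authors used for counting, divides such a read among the matching genes by an estimate.

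The plot of counts by gene and library shows every value. Of the 28 genes, 11 were annotated as protein coding, 9 as processed pseudogenes, 3 as unprocessed pseudogenes, 2 as antisense RNAs, 2 as lincRNAs and 1 as a processed transcript. The rule took in 7.01% of the 157 protein-coding Gm genes that reached 50 counts and 3.11% of the 289 processed pseudogenes. The highest share was 9.09%, of the 33 unprocessed pseudogenes. The highest counts of the 28 genes ran from 50 to 2925, with a median of 111. Just outside the rule stood Gm23262 with a highest count of 49, and Gm9733 and Gm12248 with a lowest count of 4. In 11 of the 28 the gene was on in exactly 1 library, in 11 it was off in exactly 1, and 25 were at 0 counts in at least 1 library.

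**Figure D1:**
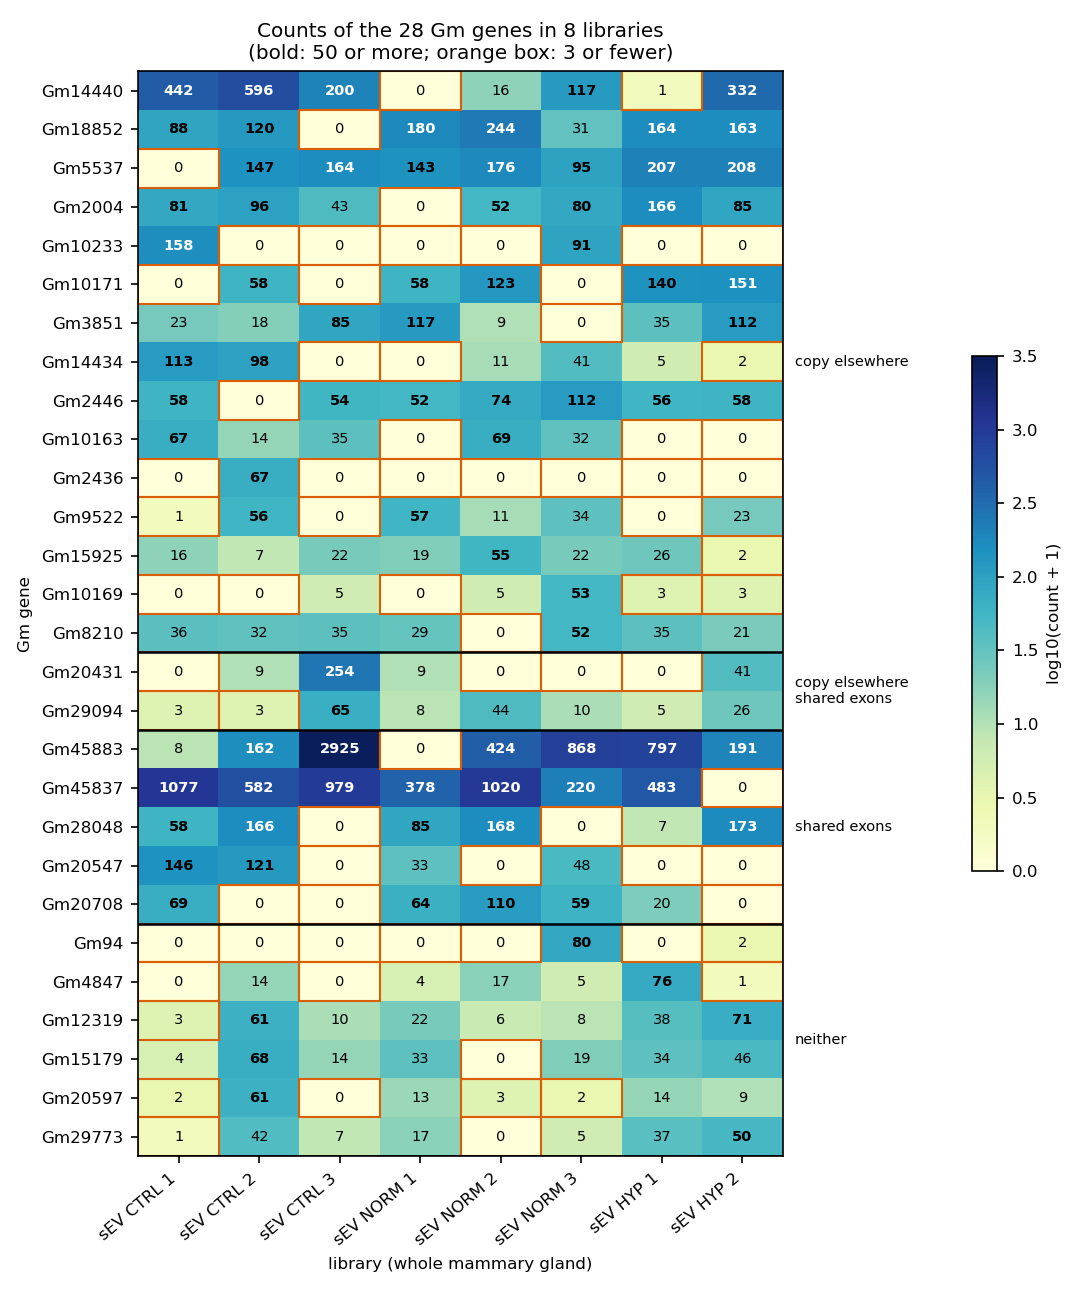
Raw counts of the 28 Gm genes (rows) in 8 mammary gland libraries (columns), coloured by log10(count + 1) and grouped by whether the gene has a copy at another locus, shares exons with a neighbour, both, or neither. Bold numbers are 50 or more and orange boxes mark 3 or fewer, and 25 of the 28 rows have both inside a single treatment group.

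Most of the genes were both on and off inside at least 1 treatment group. In 25 of the 28 genes (89.3%) an on library and an off library lay inside the same group: 15 genes within sEV CTRL, 11 within sEV NORM and 3 within sEV HYP, with some in more than 1 group. No gene was on in every library of a group and off in every library of another, and the same count was 0 among the 171 genes with other symbols, of which 126 (73.7%) were on and off inside a group. The other 3, Gm29773, Gm15179 and Gm15925, had their on and off libraries only in different groups. A switch inside a group does not exclude on and off libraries in different groups, which Gm10163, for example, also had. No 2 of the 28 genes had the same set of on libraries together with the same set of off libraries.

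On and off values were spread over all glands. Each library had 8 to 15 of the genes on and 6 to 12 off. The fewest were off in sEV CTRL 2 and sEV NORM 3, with 6 genes each. The most were off in sEV CTRL 1 and sEV CTRL 3, with 12 each. sEV CTRL 3 had the lowest total count, and all 12 of its off genes were at 0.

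In 17 of the 28 genes, an annotated transcript matched a transcript of a gene at another locus at 95% identity or more over at least 200 bases, or over 80% of a shorter transcript. In 7 genes at least 50% of the exonic bases were shared with a gene on the same strand. Altogether 22 genes (78.6%) had a copy, shared exons or both, and 6 had neither. Of the other 817 Gm genes, 441 (54%) had a copy and 49 (6%) shared exons to that extent. Of the 171 on/off genes with other symbols, 28 (16.4%) had a copy and 6 (3.51%) shared exons. A copy is the rule for processed pseudogenes, and was found for 9 of the 9 here and for 274 of the 280 others (97.9%). Among protein-coding models it was found for 5 of 11 (45.5%) here and 80 of 146 others (54.8%).

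The share of sequence that identified a gene was also low. Among all 50-base windows of the longest transcript, a median of 2.19% occurred in no other annotated gene for the 28 genes, against 63.1% for the other 817 Gm genes and 100% for the 171 on/off genes with other symbols. In 10 of the 28 genes no 50-base window was unique, compared with 58 of the 817 and 2 of the 171. Transcripts were compared in the same orientation only, so sequence on the opposite strand was not counted as shared. These shares were not used to choose the genes and are given without a test. The part that divided reads play in the on and off counts was not tested.

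**Figure D2:**
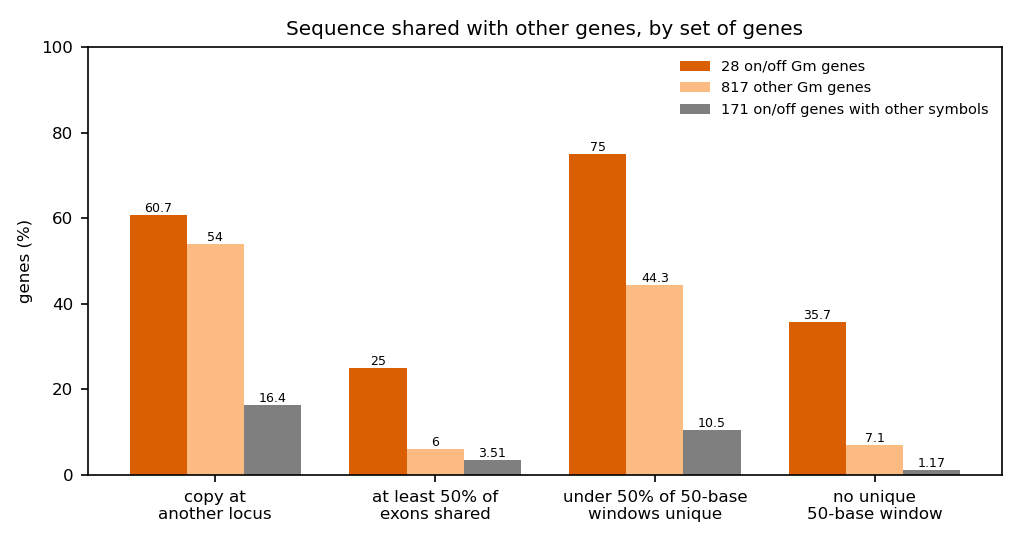
Percent of genes (y axis) with each kind of shared sequence in the 28 on/off Gm genes, the 817 other Gm genes that reached 50 counts and the 171 on/off genes with other symbols. The orange bars stand at 60.7% for a copy, 25% for shared exons and 75% for under 50% of 50-base windows unique.

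Gm2446 and Gm2436, partial duplicates of Ppp2r3c, are shown first because each was on where the other was off. Ppp2r3c encodes a regulatory subunit of protein phosphatase 2A. Both pseudogenes lie near it on chromosome 12 on the minus strand, and they are identical to each other over 771 bases. Gm2446 differs from the Ppp2r3c transcript at 4 positions, the first of which is T51C, with Gm2446's base first and positions counted from 1 at the start of its transcript. The stretches printed here are from GENCODE M21 transcripts on GRCm38, all within the coding part of Ppp2r3c, and the capital marks the base that differs. They lie in a single exon at chr12:55225972-55226071 for Gm2446, chr12:55150908-55151007 for Gm2436 and chr12:55289692-55289791 for Ppp2r3c.
Gm2446: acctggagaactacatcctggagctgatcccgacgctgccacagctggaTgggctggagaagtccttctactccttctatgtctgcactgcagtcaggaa
Gm2436: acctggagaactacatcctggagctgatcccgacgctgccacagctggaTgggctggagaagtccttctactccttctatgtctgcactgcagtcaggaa
Ppp2r3c: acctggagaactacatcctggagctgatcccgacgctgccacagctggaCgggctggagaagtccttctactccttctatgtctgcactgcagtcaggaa

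Gm2446 had 58, 0 and 54 counts in sEV CTRL 1 to 3, 52, 74 and 112 in sEV NORM 1 to 3, and 56 and 58 in sEV HYP 1 and 2. Gm2436 had 67 counts in sEV CTRL 2 and 0 in the other 7 libraries. Exactly 1 of the pair was above 0 in each of the 8 libraries, and their summed count ran from 52 to 112. The standard deviation over libraries was 1.46 CPM for Gm2446, 1.08 CPM for Gm2436 and 0.94 CPM for the sum.

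Gm10171 and Gm10233 are processed pseudogenes of Timm23, a subunit of the translocase that moves proteins across the inner mitochondrial membrane. Their whole 628-base transcripts are identical to each other and stand unchanged inside transcripts of Timm23 and of Gm10273, so that no base of either pseudogene is its own. The first 100 bases are shown to make that plain. They lie at chr1:172144802-172144901 on the minus strand in Gm10171 and, letter for letter, at chr14:66045080-66045179 (plus) in Gm10233, chr14:32201649-32201748 (minus) in Timm23 and chr10:59395755-59395854 (plus) in Gm10273.
Gm10171: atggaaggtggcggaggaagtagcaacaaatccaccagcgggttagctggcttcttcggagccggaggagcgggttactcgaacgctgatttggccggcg

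Gm10171 had 0, 58 and 0 counts in the sEV CTRL libraries, 58, 123 and 0 in sEV NORM, and 140 and 151 in sEV HYP. Gm10233 had 158 counts in sEV CTRL 1 and 91 in sEV NORM 3, and 0 in the other libraries. No library had both above 0. Exactly 1 was above 0 in 7 libraries, and sEV CTRL 3 had neither. Timm23 had 732 to 1200 counts and Gm10273 had 1056 to 1631, with no library of either near 0.

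Gm5537 is a processed pseudogene of Pgk1, the glycolytic enzyme phosphoglycerate kinase, and its 1252-base transcript is contained whole in a Pgk1 transcript. Gm5537 had 0, 147 and 164 counts in sEV CTRL, 143, 176 and 95 in sEV NORM, and 207 and 208 in sEV HYP. It was off in sEV CTRL 1 alone. Pgk1-rs7, a retrogene that matches Gm5537 without a mismatch over 1251 bases, had 109 counts in sEV CTRL 1, 15 in sEV NORM 1 and 0 in the other 6 libraries. Their sum ran from 95 to 208, and Pgk1 had 2366 to 3717 counts.

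Gm8210 derives from Rpl29, a protein of the large ribosomal subunit, and is shown with it because 3 bases in 483 separate them. Gm13841, on chromosome 5, carries the same 483 bases as Gm8210. The first 100 bases of Gm8210 lie at chr1:43189156-43189255 on the plus strand, and the matching coding stretch of Rpl29 spans 2 exons between chr9:106429978 and 106430370. The capital marks A72C, counted from the start of Gm8210.
Gm8210: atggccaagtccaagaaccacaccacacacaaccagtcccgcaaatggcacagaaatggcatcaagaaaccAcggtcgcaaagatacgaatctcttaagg
Rpl29: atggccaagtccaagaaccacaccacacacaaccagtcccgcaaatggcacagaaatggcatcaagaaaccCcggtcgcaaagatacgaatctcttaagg

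Gm8210 had 36, 32 and 35 counts in sEV CTRL, 29, 0 and 52 in sEV NORM, and 35 and 21 in sEV HYP. Gm13841 had the same count as Gm8210 in 7 of the 8 libraries. In sEV NORM 2 Gm13841 had 58 counts and Gm8210 had 0. With its highest count of 52, Gm8210 was among the genes nearest to the threshold, with Gm10169 at 53 and Gm29773 at 50.

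Gm10163 is a processed pseudogene of Rpl21, another protein of the large ribosomal subunit, with 57 copies at other loci. It differs from Rpl21 at 2 of 481 positions, and Gm10240 and Gm13370 carry its whole transcript unchanged. The stretch printed here, with C336T in capitals, lies at chr9:88391081-88391180 (plus) in Gm10163, inside an intron of Snx14 on the other strand, and at chr5:146835566-146835665 (plus) in the coding part of Rpl21.
Gm10163: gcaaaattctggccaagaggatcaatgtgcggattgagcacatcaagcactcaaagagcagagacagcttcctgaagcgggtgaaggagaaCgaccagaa
Rpl21: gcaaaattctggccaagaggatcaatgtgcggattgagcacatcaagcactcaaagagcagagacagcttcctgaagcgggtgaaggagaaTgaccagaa

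Gm10163 had 67, 14 and 35 counts in sEV CTRL, 69 in sEV NORM 2, 32 in sEV NORM 3, and 0 in sEV NORM 1, sEV HYP 1 and sEV HYP 2. The sEV HYP libraries were both at 0 and below all 3 sEV CTRL libraries, but shared the value of 0 with sEV NORM 1. Its identical copies, Gm10240 and Gm13370, were at 0 in all 8 libraries. Rpl21 had 6131 to 11170 counts, and Gm10163 made up 0.242% of the counts summed over it and its 57 copies.

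Gm10169 is a processed pseudogene of Mif, which encodes the cytokine macrophage migration inhibitory factor. It lies wholly within exons of C230062I16Rik on the opposite strand, and the strand setting of the counting is not given in the sources used here. It differs from Mif at 3 of 348 positions, and the stretch printed here holds 2 of them, A35G and T63G. The stretch is at chr7:29965466-29965565 (minus) in Gm10169 and chr10:75860069-75860168 (minus) in the coding part of Mif.
Gm10169: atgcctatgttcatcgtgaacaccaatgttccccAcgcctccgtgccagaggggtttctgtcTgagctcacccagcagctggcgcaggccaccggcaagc
Mif: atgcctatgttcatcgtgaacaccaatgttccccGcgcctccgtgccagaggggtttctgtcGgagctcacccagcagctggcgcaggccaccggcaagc

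Gm10169 had 53 counts in sEV NORM 3, 5 in sEV CTRL 3 and sEV NORM 2, and 3 or fewer elsewhere. Mif had 519 to 1057 counts. C230062I16Rik had 25 counts in sEV NORM 3 and 18 to 41 over all libraries, so it was not highest where Gm10169 was on.

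The remaining pseudogenes showed the same mixture of values. Gm3851, a copy of Hmgb1, which encodes a chromatin protein, had 23, 18 and 85 counts in sEV CTRL, 117, 9 and 0 in sEV NORM, and 35 and 112 in sEV HYP. Gm9522 had 56 counts in sEV CTRL 2, 57 in sEV NORM 1, and 0 in sEV CTRL 3 and sEV HYP 1, and its only copy was a stretch of 224 bases at 95.5% identity to the glycolytic gene Gapdh. With 89.5% of its 50-base windows unique, Gm9522 shared the least sequence of the 9 processed pseudogenes. Gm15925, related to the paired immunoglobulin-like receptor genes Pira2 and Pirb, was on in sEV NORM 2 with 55 counts and off in sEV HYP 2 with 2.

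Gm18852 is a 3593-base processed pseudogene at chr7:105925000-105928592 that differs from Gm18853 at 1 position in 3592. It had 88, 120 and 0 counts in sEV CTRL, 180, 244 and 31 in sEV NORM, and 164 and 163 in sEV HYP. Gm18853 had 116 to 358 counts, and 142 in sEV CTRL 3, where Gm18852 was at 0.

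Gm14440, Gm2004 and Gm14434 belong to the cluster of KRAB zinc finger genes on distal chromosome 2, a family of DNA-binding proteins that act mainly as repressors. Each has a partner in the cluster with the identical transcript: Gm14288 for Gm14440 over 3382 bases, Gm14419 for Gm2004 over 1749 bases and Gm14308 for Gm14434 over 1497 bases. None of the 3 had a unique 50-base window. A stretch of 100 coding bases of Gm14440, shown because it is the same in both genes, spans 2 exons from chr2:175275201 to 175283394 on the plus strand and stands unchanged in Gm14288.
Gm14440: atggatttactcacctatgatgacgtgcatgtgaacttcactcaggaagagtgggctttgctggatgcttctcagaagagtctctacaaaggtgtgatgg

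Gm14440 had 442, 596 and 200 counts in sEV CTRL, 0, 16 and 117 in sEV NORM, and 1 and 332 in sEV HYP. Gm14288 had 108, 73 and 199 counts in sEV CTRL, 567, 465 and 434 in sEV NORM, and 646 and 303 in sEV HYP. The partner was lowest where Gm14440 was highest, and their sum ran from 399 to 669. The standard deviation over libraries was 10.8 CPM for Gm14440, 9.02 CPM for Gm14288 and 4.57 CPM for the sum.

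Gm2004 had 81, 96 and 43 counts in sEV CTRL, 0, 52 and 80 in sEV NORM, and 166 and 85 in sEV HYP, against 188 for Gm14419 in sEV NORM 1, where Gm2004 was off. The summed counts of Gm2004 and Gm14419 ran from 86 to 221, with a standard deviation of 2.2 CPM, the same at this rounding as that of Gm2004 alone. Gm14434 had 113, 98 and 0 counts in sEV CTRL, 0, 11 and 41 in sEV NORM, and 5 and 2 in sEV HYP, while Gm14308 had 68 to 132 counts. The whole Gm14434 transcript also stands in Gm2026, Gm4724, Gm4631, Gm11007 and Gm2007, and Gm4631 had the most counts of these, from 713 to 1770.

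**Figure D3:**
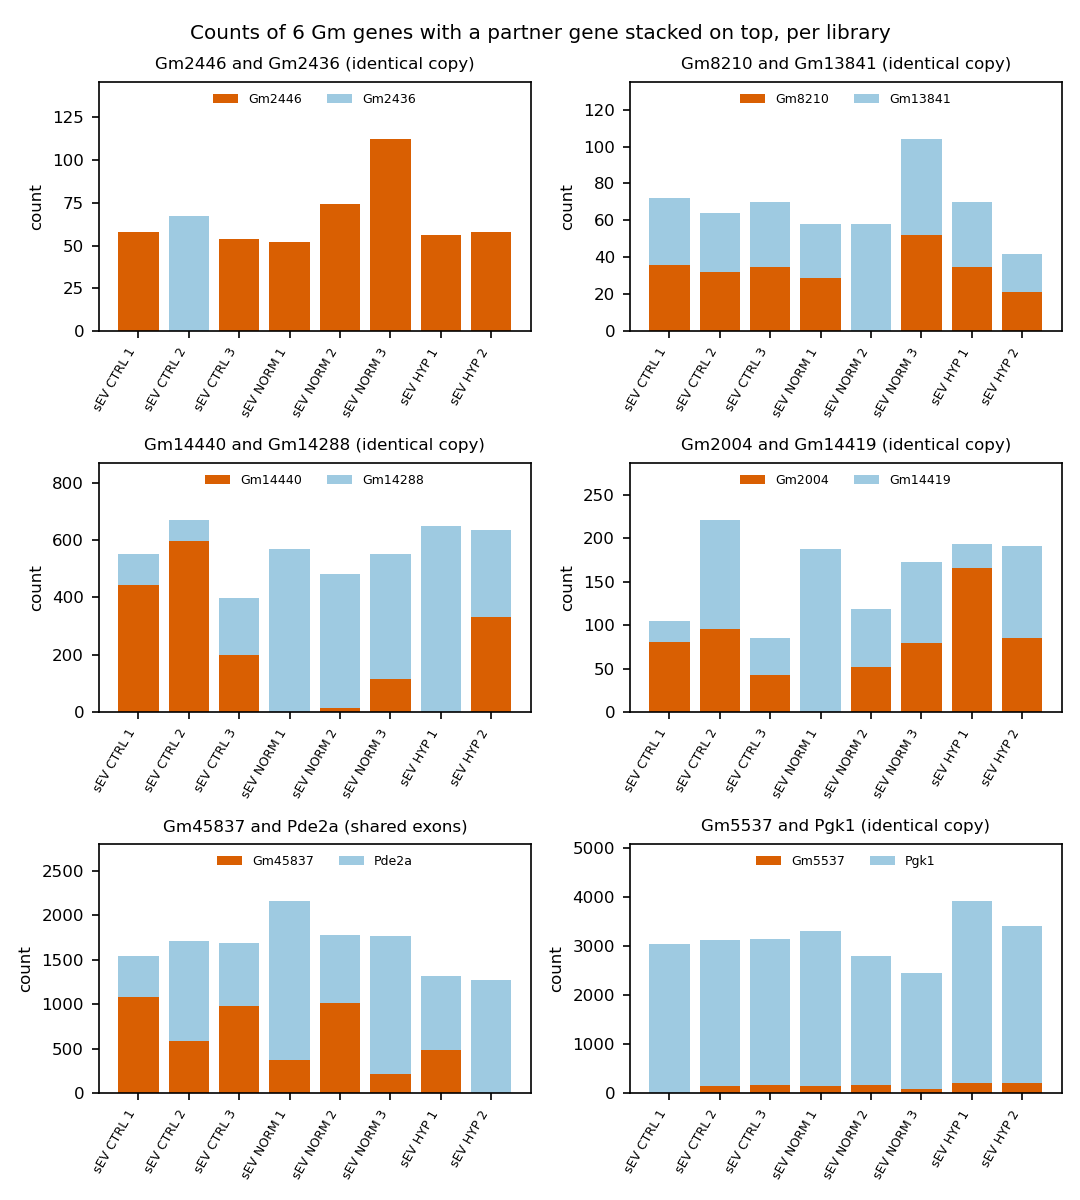
Counts per library (y axis) of 6 Gm genes (orange), with a partner gene of identical sequence or shared exons (blue) stacked on top, for the 8 libraries on the x axis. Orange and blue replace each other in Gm2446 with Gm2436 and in Gm14440 with Gm14288, where the stacked height runs from 52 to 112 and from 399 to 669.

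Read-through models formed the other large class. In these, a transcript model runs from the exons of a gene into those of its neighbour, so that most of its bases belong to the neighbours. The shared portion was 71.1% for Gm45883 and 95.6% to 100% for Gm20431, Gm20547, Gm20708, Gm28048, Gm29094 and Gm45837. Among their 50-base windows, 27.4% were unique in Gm45883, 12.7% in Gm20708 and 1.82% to 7.32% in the other 5. The joins of 5 models are printed because they set the model apart from both neighbours, with 30 bases of the first gene in lower case and 30 of the second in capitals, all within the model's coding part on GRCm38.
Gm45837, Arap1 into Pde2a: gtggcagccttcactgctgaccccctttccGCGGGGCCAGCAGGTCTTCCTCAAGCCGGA
Gm20547, C2 into Cfb: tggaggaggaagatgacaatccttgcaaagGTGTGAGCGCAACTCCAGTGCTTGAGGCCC
Gm20431, Tmem189 into Ube2v1: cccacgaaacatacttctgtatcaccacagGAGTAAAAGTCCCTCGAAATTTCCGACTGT
Gm20708, Syngr2 into Afmid: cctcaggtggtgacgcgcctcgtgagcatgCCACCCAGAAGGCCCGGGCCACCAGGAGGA
Gm29094, Bcl2a1b into Mthfs: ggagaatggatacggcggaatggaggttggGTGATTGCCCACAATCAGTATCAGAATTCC
The joins run over chr7:101411040-101451431 (plus), chr17:34861935-34863374 (minus), chr2:167617948-167644793 (minus), chr11:117809774-117832374 (plus) and chr9:89199750-89215238 (plus), in that order.

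Gm45837 runs from Arap1, a GTPase-activating protein, into Pde2a, a phosphodiesterase of cyclic nucleotides, and 95.6% of its exonic bases are those of Pde2a. Gm45837 had 1077, 582 and 979 counts in sEV CTRL, 378, 1020 and 220 in sEV NORM, and 483 and 0 in sEV HYP. It was thus off in sEV HYP 2 alone and at 220 or more elsewhere. Pde2a had 470, 1134 and 706 counts in sEV CTRL, 1781, 764 and 1545 in sEV NORM, and 838 and 1274 in sEV HYP. The standard deviation was 20.5 CPM for Gm45837, 17.4 CPM for Arap1 and Pde2a together and 10.7 CPM for all 3 summed.

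Gm45883 joins exons of Gm45716 and Mmd and had the highest count of the 28 genes. Gm45883 had 8, 162 and 2925 counts in sEV CTRL, 0, 424 and 868 in sEV NORM, and 797 and 191 in sEV HYP. It was off in sEV NORM 1 alone and on in libraries of all 3 groups, and the range within sEV CTRL, from 8 to 2925, held all values but the 0. Mmd had 13776 to 23323 counts, so the largest count of Gm45883 stood beside 19583 of Mmd in the same library.

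Gm20547 joins C2 and Cfb, which encode 2 components of the complement system. Gm20547 had 146, 121 and 0 counts in sEV CTRL, 33, 0 and 48 in sEV NORM, and 0 in both sEV HYP libraries. C2 and Cfb together had 3124 to 5264 counts. Gm20431 joins Tmem189 and the ubiquitin-conjugating enzyme variant Ube2v1, and had 254 counts in sEV CTRL 3, 41 in sEV HYP 2 and 9 or fewer in the other libraries.

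Gm28048 joins Commd1, a regulator of copper handling and NF-κB, and B3gnt2, a glycosyltransferase. Gm28048 had 58, 166 and 0 counts in sEV CTRL, 85, 168 and 0 in sEV NORM, and 7 and 173 in sEV HYP. Gm20708 joins Syngr2 and Afmid, an enzyme of tryptophan breakdown, and had 69, 0 and 0 counts in sEV CTRL, 64, 110 and 59 in sEV NORM, and 20 and 0 in sEV HYP. Gm29094 joins Bcl2a1b, of the antiapoptotic BCL2 family, and the folate enzyme Mthfs, and it had 65 counts in sEV CTRL 3, 44 in sEV NORM 2, 26 in sEV HYP 2 and 10 or fewer elsewhere.

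The count of each gene was then summed with that of its closest copy at another locus. Of the 17 genes with a copy, 2 still met the on/off rule on the sum, Gm10163 and Gm20431, whose closest copies had 0 and 1 to 6 counts. Where copies tied, the tied gene with the lowest gene ID was used, which was Timm23 for both Gm10171 and Gm10233. Gm10171 and Gm10233 match each other equally well. Their own sum ran from 0 to 158 counts, so with that partner both would still meet the rule. With all copies summed, 0 of the 17 met it. These counts are partly fixed by the choice of partner, since 13 of the 17 closest copies were above 3 counts in every library and a sum with such a partner cannot be off. The standard deviation of the sum was below that of both parts for 4 of the 17 genes with their closest copy. These were Gm2446 and Gm2436 with each other, Gm14440 with Gm14288 and, by less than the rounding, Gm2004 with Gm14419. It was also below for Gm45837, 1 of 8 genes summed with overlapping genes, and for 0 of 17 with all copies summed. For Gm10171 and Gm10233 summed with each other it was 2.88 CPM, below 3.18 and 3.02 CPM for the parts. That pair is not in the count of 4 because of the tie. Partners of comparable level also went the other way. The sum of Gm18852 and Gm18853 spread more (5.13 CPM) than its parts (3.64 and 3.54 CPM). So did that of Gm8210 and Gm13841 (0.902 CPM against 0.726 and 0.541 CPM). Where the partner was far more abundant, as Gapdh was beside Gm9522, or at 0, as beside Gm10163, the spread of the sum is set by the more abundant part as well, and nothing is read from it.

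The remaining 6 genes had neither a copy nor shared exons: Gm29773, Gm15179, Gm12319, Gm20597, Gm4847 and Gm94. Between 97.1% and 100% of their 50-base windows were unique. Sequence facing exons on the opposite strand was not counted as shared in these values. The strand setting of the counting is not given in the sources used here, so reads from a facing gene are not excluded. The first 3 of the 6 genes have genes of striated muscle among their neighbours. Gm29773, an antisense RNA at chr8:123896273-123900620, lies 1522 bases from Acta1, which encodes skeletal muscle actin, and faces exons of Nup133 over 24.3% of its exonic bases. Gm15179, at chr1:75368212-75375012, faces exons of the intermediate filament gene Des over 220 bases on the opposite strand and lies 285 bases from Speg, a kinase of striated muscle. Gm12319, at chr11:70654741-70656493, lies 709 bases from Eno3, the muscle enolase, and nearer, at 97 bases, to Pfn1, which encodes the actin-binding protein profilin.

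Gm29773 had 1, 42 and 7 counts in sEV CTRL, 17, 0 and 5 in sEV NORM, and 37 and 50 in sEV HYP. Gm12319 had 3, 61 and 10 counts in sEV CTRL, 22, 6 and 8 in sEV NORM, and 38 and 71 in sEV HYP. Gm15179 had 4, 68 and 14 counts in sEV CTRL, 33, 0 and 19 in sEV NORM, and 34 and 46 in sEV HYP. For all 3, sEV CTRL 2 and both sEV HYP libraries were the 3 highest, and every sEV HYP value was above every sEV NORM value, while the sEV CTRL values spanned most of the range. For Gm15179 the margin was small, with 34 counts in sEV HYP 1 and 33 in sEV NORM 1.

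The same libraries were high for skeletal muscle. Acta1 had 2226, 32067 and 8829 counts in sEV CTRL, 16657, 43 and 5479 in sEV NORM, and 16401 and 36576 in sEV HYP. All 5 skeletal muscle markers examined (Acta1, Ckm, Myh4, Tnnt3 and Mylpf) were detected in every library, and their summed level was 482 to 5880 CPM in sEV CTRL, 6.52 to 2110 CPM in sEV NORM and 3220 to 9370 CPM in sEV HYP. The order of the 8 libraries by that sum was the order of Gm29773. Eno3 had its highest counts, 4917 and 3910, in sEV HYP 2 and sEV CTRL 2, while Pfn1 had its lowest there, 2348 and 2421. Des, which faces Gm15179, had 556, 2607 and 1098 counts in sEV CTRL, 1474, 406 and 678 in sEV NORM, and 1573 and 2430 in sEV HYP. Nup133, which faces Gm29773, had 371 to 543 counts, with the 371 in sEV HYP 2. The part of reads from these facing genes was not tested. In these bulk samples fewer muscle fibres and less RNA per fibre cannot be told apart, and the part of muscle content in the counts of the 3 genes was not tested.

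**Figure D4:**
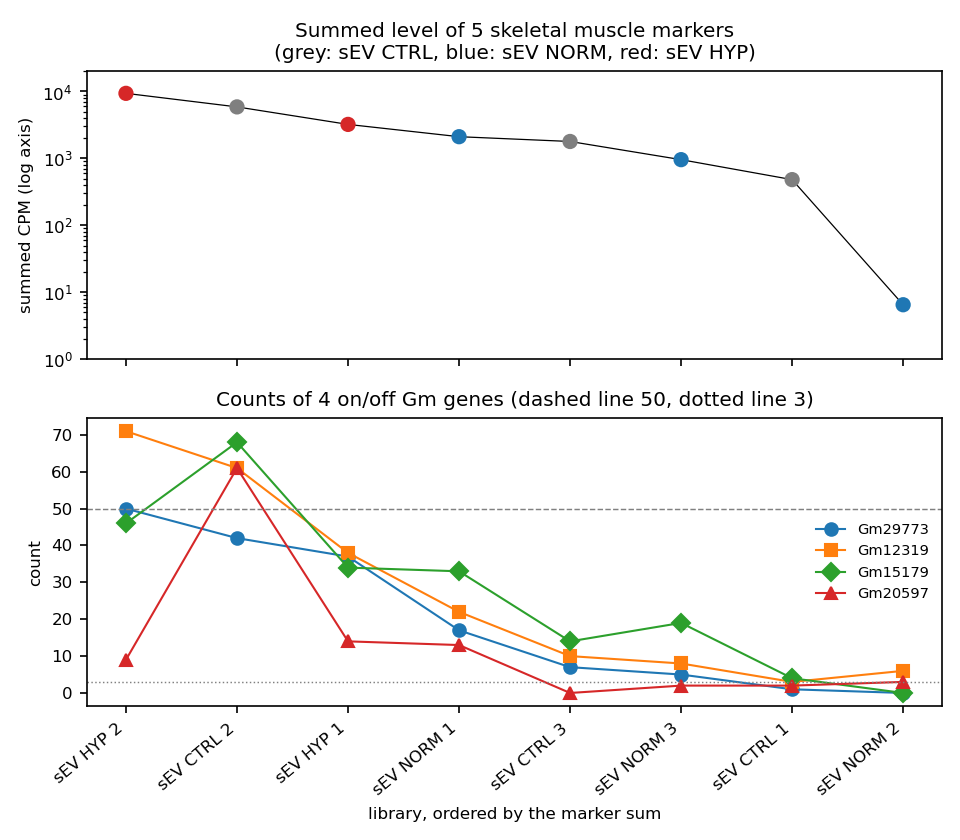
Upper panel: summed level of 5 skeletal muscle markers in CPM (log axis) in the 8 libraries, ordered from high to low. Lower panel: counts of 4 Gm genes with no copy and no shared exons in the same order. Gm29773 falls from 50 to 0 in the marker order, while Gm20597 peaks at 61 in sEV CTRL 2 only.

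Gm20597, a lincRNA at chr10:53498443-53518989, had 61 counts in sEV CTRL 2 and 14 or fewer in the other libraries, with 9 in sEV HYP 2, where the muscle markers were highest. Gm4847, a protein-coding model 14362 bases from Fmo9, had 76 counts in sEV HYP 1 and 17 or fewer in the other libraries, and Fmo9 itself had at most 3. Gm94 had 80 counts in sEV NORM 3, 2 in sEV HYP 2 and 0 in the other 6. The summed level of 5 skin markers (Krt10, Krt1, Lor, Dsp and Sbsn) was also highest in sEV NORM 3. It was 94.2 CPM there and 24.3 to 44.9 CPM elsewhere, and the part of skin content in the counts of Gm94 was not tested. Each of these 3 genes was on in a single gland, a different one for each.

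The treatment comparisons asked whether the vesicles of hypoxic cells changed the gland relative to those of normoxic cells or to the control preparation. In a quasi-likelihood fit of all 8 libraries with edgeR, 25 of the 28 genes had enough counts to be tested, and Gm10169, Gm94 and Gm2436 did not. Between sEV HYP and sEV NORM, 2 of the 25 had an unadjusted p under 0.05, beside 3.95% of all 17858 genes tested. Between sEV HYP and sEV CTRL there were 2, beside 2.45%, and between sEV NORM and sEV CTRL 1, beside 1.62%. After Benjamini-Hochberg adjustment edgeR called 0 of all genes in each comparison, with 706, 438 and 290 genes at an unadjusted p under 0.05. DESeq2 called 16, 4 and 2 genes after adjustment on all 8 libraries, and 83, 14 and 3 on only the groups compared. On all 8 libraries 0 of the 28 genes were among them. On only the groups compared, DESeq2 called Gm10233 between sEV HYP and sEV NORM (adjusted p = 0.00396), and Gm10163 (adjusted p = 0.00867) and Gm10233 (adjusted p = 0.00311) between sEV HYP and sEV CTRL. Gm10233 was above 0 in a single library of sEV NORM and a single library of sEV CTRL, and DESeq2 gave it no p on all 8 libraries. Since the same libraries chose the genes, these counts are a description, and the comparisons share libraries.

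Gm12319 had 2 libraries of sEV HYP above all 3 of sEV NORM, with a log2 difference of 2.41 (SE 0.97), an unadjusted p of 0.0348 and an adjusted p of 1 by edgeR. The unadjusted p was 0.0898 without sEV NORM 2, 0.0862 without sEV NORM 3 and 0.185 without sEV HYP 2.

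Gm10163 was at 0 in sEV HYP, at 1.52 ± 1.53 CPM (SD, n = 3) in sEV NORM and at 1.99 ± 1.38 CPM (SD, n = 3) in sEV CTRL. With the sEV HYP libraries set at 3 counts each, its mean was at least 10.2-fold higher in sEV NORM and at least 13.3-fold higher in sEV CTRL. These bounds were 5.08-fold without sEV NORM 2 and 8.57-fold without sEV CTRL 1. They hold for counting error only. Gm10163 had no unique 50-base window, and the bounds do not cover how reads were divided among it and its copies. By edgeR the unadjusted p was 0.0188 and 0.0142, and the adjusted p was 1 for both. For sEV NORM the unadjusted p was 0.0612 without sEV HYP 1 and 0.0536 without sEV HYP 2.

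Gm20547 was also at 0 in sEV HYP, and its mean in sEV CTRL, 4.31 ± 3.85 CPM (SD, n = 3), was at least 28.9-fold higher by the same floor, although sEV CTRL 3 was at 0 as well. That bound was 18.5-fold without sEV CTRL 1 and 43.4-fold without sEV CTRL 3. It too holds for counting error only, and 2.45% of the 50-base windows of Gm20547 were unique. By edgeR the unadjusted p was 0.0216 and the adjusted p was 1, and the unadjusted p was 0.0686 without sEV HYP 1 and 0.0625 without sEV HYP 2.

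Gm20431 had 0, 9 and 254 counts in sEV CTRL against 9, 0 and 0 in sEV NORM, with a log2 difference of -5.15 (SE 2.15), an unadjusted p of 0.0399 and an adjusted p of 1 by edgeR. The 2 groups overlapped. The log2 difference was -9.61 (unadjusted p = 0.0536) without sEV NORM 1, and the unadjusted p was 0.0959 without sEV NORM 2 and 0.0992 without sEV NORM 3. Leaving out sEV CTRL 1 or sEV CTRL 2 gave log2 differences of -5.77 and -5.69, and without sEV CTRL 3 the gene no longer passed the filter on low counts. All these p are by edgeR.

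Values in CPM that did not overlap between groups were common among all genes. Between sEV HYP and sEV NORM they were found for 7 of the 28 genes, beside 22.8% of all genes tested. The number was 6 between sEV HYP and sEV CTRL, beside 12.8%, and 1, Gm14440, between sEV NORM and sEV CTRL, beside 4.86%. Gm10171, Gm5537 and Gm2004 did not overlap in either comparison of sEV HYP. For Gm2004 the margin was small, with 4.55 CPM in sEV HYP 2 and 4.38 CPM in sEV CTRL 2. Its raw counts there, 85 and 96, did overlap.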

How the data were processed

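Whole mammary glands were profiled by polyadenylated RNA sequencing with a Lexogen SENSE kit in 3 sEV CTRL, 3 sEV NORM and 2 sEV HYP libraries, grouped by the labels. The authors aligned reads with STAR to mm10 (GRCm38) and deposited 1 table of whole-number counts per gene, made with RSEM 1.2.12 on an Ensembl annotation. RSEM divides reads that match several genes by an estimate. How the estimates became whole numbers and whether strand was used are not given in the sources used here. All 8 columns were used.

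From these counts, positions, biotypes and transcripts were taken from GENCODE M21 on GRCm38, a later release than the Ensembl annotation counted on, so copies, shared exons and unique windows rest on transcript models that may differ from those counted. Transcripts were compared with blastn 2.17.0, and a copy was a gene at another locus at 95% identity or more over at least 200 bases, or over 80% of a shorter transcript. Copies and unique windows were sought in the same orientation only. Ties for the closest copy were broken by gene ID. CPM are counts scaled by each library's total after TMM adjustment. Groups were compared with edgeR 4.0.16 in R 4.3.3 on all 8 libraries (TMM scaling, filterByExpr with a minimum count of 10, quasi-likelihood F test, two-sided, Benjamini-Hochberg adjustment), and the fit was tested on simulated data. DESeq2 1.42.0 was an alternative, as were other size factors, no filter, only the groups compared, a replicate block, copies summed and each library left out. Bounds without each library were chosen after seeing the data. Genes were named by the largest counts, the fullest coverage by a copy, nearness to the limits of the rule and overlap with these. The others of the 28 were named after their values were seen, and group differences are given for those with an unadjusted p under 0.05. Members and lists were chosen with earlier results of these data known. Total counts of 18194996 to 24622569 put 3 counts at 0.121 to 0.164 CPM, and floors cover counting error only.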

Additional observations from a re-analysis of the deposited data

How the results depend on the processing

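The number of Gm genes that met the on/off rule was 24 to 27 when 1 library was left out, 15 with limits of 100 or more and 1 or fewer counts, and 122 with 30 or more and 5 or fewer. After adding the closest copy, 2 genes met the rule, against 0 with all copies summed, 1 with overlapping genes added too and 0 with limits of 100 and 1. Ties for the closest copy were broken by gene ID, and with each other as partners Gm10171 and Gm10233 would also meet the rule.

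Between sEV HYP and sEV NORM, the number of these genes at an unadjusted p under 0.05 was 5 with DESeq2 and 6 with edgeR on only the groups compared, 7 with no filter on low counts and 5 with each gene and its closest copy summed. Leaving out 1 library gave 1 to 5, with 5 without sEV CTRL 1, 4 without sEV NORM 1, 4 without sEV HYP 1 and 1 without sEV HYP 2. Between sEV HYP and sEV CTRL it was 8 with no filter and 2 to 7 with 1 library left out, the 7 without sEV CTRL 2. Between sEV NORM and sEV CTRL it was 0 with DESeq2 on only the groups compared, 5 with no filter, 2 with the closest copy summed and 0 to 4 with 1 library left out: 2 without sEV CTRL 1, 3 without sEV CTRL 2, 0 without sEV NORM 2, and 4 without either sEV HYP library. The cause was not tested.

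Same-numbered libraries had correlations of deviations from -0.42 to 0.37, and libraries with different numbers from -0.37 to 0.47. With 2 or 3 libraries per group, these values cannot decide whether the replicate numbers pair the libraries. With a replicate block the counts were 1, 3 and 1 in the 3 comparisons. The log2 difference of Gm20431 between sEV NORM and sEV CTRL was then -2.57 (unadjusted p = 0.391 by edgeR). Over the alternatives that gave a p, the named differences kept their direction in 66 of 66 values, and in 14 the unadjusted p was 0.05 or more. For Gm10163 and Gm20547 the direction was fixed in advance, since both sEV HYP libraries were at 0. Gm20431 had no p with DESeq2, with edgeR on only the groups compared, or without sEV CTRL 3, so those settings are not counted. By counting error alone, a gene listed at 0 may lie anywhere under the floor of 0.121 to 0.164 CPM. The floor does not cover how reads were divided among identical genes. Gm8210, for example, had 0 counts in sEV NORM 2, where Gm13841, with the same 483 bases, had 58.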
